A study of Mus musculus with 4 samples.

Results

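Sonic hedgehog signalling was described here through 9 genes: the ligand Shh, its receptor Ptch1, the co-receptors Boc, Gas1 and Cdon, the signal transducer Smo and the zinc finger transcription factors Gli1, Gli2 and Gli3. The genes were listed by name and found on the array by probe sets that carry 1 gene symbol. All 9 were found, each with 1 probe set, among 19938 genes named in this way. Expression was measured in 4 regions, namely cerebellum, olfactory bulb, pontine nucleus (a hindbrain nucleus whose axons run to the cerebellum) and superior colliculus (the visual part of the midbrain roof) of ICR mice at embryonic day 17.5. ICR is an outbred stock, and the labels name no transgene or treatment. RNA of each region was pooled, from 13 mice (cerebellum), 14 mice (olfactory bulb), 15 mice (pontine nucleus) and 16 mice (superior colliculus), and each pool was hybridised to 1 Affymetrix array. Below, bulb and colliculus stand for the olfactory bulb and the superior colliculus. With 1 array per region there is no SD and no test, and a difference between regions cannot be told apart from a difference between single pooled preparations.

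Hedgehog ligand is taken up by Ptch1, which otherwise holds Smo inactive. Once Ptch1 is bound, Smo signals at the primary cilium and shifts the Gli proteins from repressor to activator forms. Gli2 is the main activator, Gli3 acts largely as a repressor without ligand, and Gli1 and Ptch1 are themselves induced by the signal. Boc, Cdon and Gas1 bind the ligand at the cell surface and help to present it to Ptch1. In the late embryonic and early postnatal cerebellum, Purkinje cells release Shh, and the granule cell precursors of the external granular layer divide in response to it.

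Values were log2 signals, and the array medians over 35556 probe sets lay between 8.07 and 8.13. Levels of different genes are not compared, since each probe set has its own brightness, and precision is limited by the number of arrays. The level floor was 8.56, the median level over all genes and arrays, and the 10908 genes that exceeded it somewhere were compared. A higher call for a region required a level that topped each of the other 3 arrays by 1 log2 unit (2-fold) or more, and a lower call a level that lay under each of them by as much. As a guide to background, 203 vomeronasal receptor and beta defensin genes had a 95th percentile of 7.33. As a guide to measurement spread, pairs of probe sets of the same gene disagreed in a regional difference by a median of 0.07 and a 95th percentile of 0.42 log2 units over 643 genes. Neighbouring regions closer than 0.42 are described below as not apart beyond that spread, which holds no difference between animals or dissections. Genes listed for the regions followed the labels, but the lists were chosen with earlier results of these data known. Their match is therefore no independent check. All 6 olfactory bulb genes listed, such as Dlx1 and Tbr1, were called higher in the bulb (0.972% of compared genes). All 6 pontine genes, such as Hoxa2, were called in the pontine nucleus (0.798%), and all 5 tectal genes, such as Pax7, in the superior colliculus (0.715%). Some also read high elsewhere, such as the pontine gene Barhl1, at 11.25 in cerebellum, and the bulb gene Eomes, at 10.51 there. At any size of difference, all 9 measured Purkinje cell genes read highest in the cerebellum, as did 30.6% of all genes. By the size rule 5 of them were called higher there (0.605% of compared genes). Pcp4 and Lhx5 were only 0.07 and 0.29 above the superior colliculus, within the spread between probe sets.

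Promoter windows of 250 bases before the annotated gene start were held for 6 of the 9 members in RefSeq's annotation of mouse assembly GRCm38.p6. The entries were those of Ptch1, Smo, Gli2, Gli3, Cdon and Gas1. Shown are those of Ptch1, the receptor and feedback target, of Gli2 and Gli3, the transcription factors that differ most between regions, and of Cdon, the only member with levels under the 95th percentile of the background genes. Capitals mark the GC box GGGCGG on either strand (CCGCCC on the other), the element bound by Sp1-type factors.
Ptch1 (chr13:63565736-63565985, minus strand): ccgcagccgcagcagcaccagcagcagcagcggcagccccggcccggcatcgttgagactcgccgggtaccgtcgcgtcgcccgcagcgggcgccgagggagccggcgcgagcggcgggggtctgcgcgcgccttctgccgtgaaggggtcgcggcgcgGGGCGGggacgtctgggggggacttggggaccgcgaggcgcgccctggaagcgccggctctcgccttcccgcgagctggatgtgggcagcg
Gli2 (chr1:119053620-119053869, minus strand): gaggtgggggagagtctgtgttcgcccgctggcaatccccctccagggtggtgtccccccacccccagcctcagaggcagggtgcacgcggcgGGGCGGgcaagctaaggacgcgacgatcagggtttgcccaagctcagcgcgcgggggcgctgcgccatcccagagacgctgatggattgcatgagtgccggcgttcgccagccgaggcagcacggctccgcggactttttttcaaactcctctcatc
Gli3 (chr13:15463473-15463722, plus strand): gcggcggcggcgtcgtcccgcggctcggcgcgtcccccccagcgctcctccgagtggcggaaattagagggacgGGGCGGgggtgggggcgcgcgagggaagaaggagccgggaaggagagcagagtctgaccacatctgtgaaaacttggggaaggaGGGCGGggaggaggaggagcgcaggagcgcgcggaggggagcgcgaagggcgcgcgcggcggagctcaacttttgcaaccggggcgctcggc
Cdon (chr9:35451826-35452075, plus strand): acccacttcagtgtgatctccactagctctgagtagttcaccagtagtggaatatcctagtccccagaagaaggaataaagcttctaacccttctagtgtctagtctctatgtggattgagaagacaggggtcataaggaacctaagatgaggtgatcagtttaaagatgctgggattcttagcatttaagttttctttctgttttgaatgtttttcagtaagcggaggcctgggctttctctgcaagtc

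The GC box was present in 4 of the 6 windows, those of Ptch1, Gli2, Gli3 and Gas1, and in 32.7% of 32817 windows of the same length. Gli3 held 2 of them. The windows of Smo and Cdon had none. The Gli recognition sequence GACCACCCA, or its complement TGGGTGGTC, was in 0 of the 6 windows and in 0.225% of all windows. CpG dinucleotides numbered 41 in the Ptch1 window, 34 in that of Gli3, 22 in that of Gli2, 15 in that of Smo and 10 in that of Gas1. The Cdon window held 1, against a median of 6 over all windows. These letters describe the sequence and say nothing of factor binding in the tissue.

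Of the 9 genes, 6 read highest in the cerebellum (Shh, Ptch1, Smo, Gli1, Gli2 and Boc), where 30.6% of all 19938 genes did. In the pontine nucleus 7 read lowest (Shh, Smo, Gli1, Gli2, Gli3, Boc and Gas1), where 33.6% of all genes did. Both held for 5 members, Shh, Smo, Gli1, Gli2 and Boc, and for 13.9% of all genes. These counts take differences of any size. Those of Shh in both regions, and those of Smo and Gli1 in the pontine nucleus, did not exceed the spread between probe sets. A range over the 4 arrays of at least 1 log2 unit was reached by 6 of the 9 members and by 9.33% of all genes. Above the level floor it was 6 of 7 and 15.0%. Shh and Cdon stayed below the floor on every array, and Gli1 passed it only through its cerebellar level, so that counts over the 7 compared members are partly set by that filter.

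**Figure D1:**
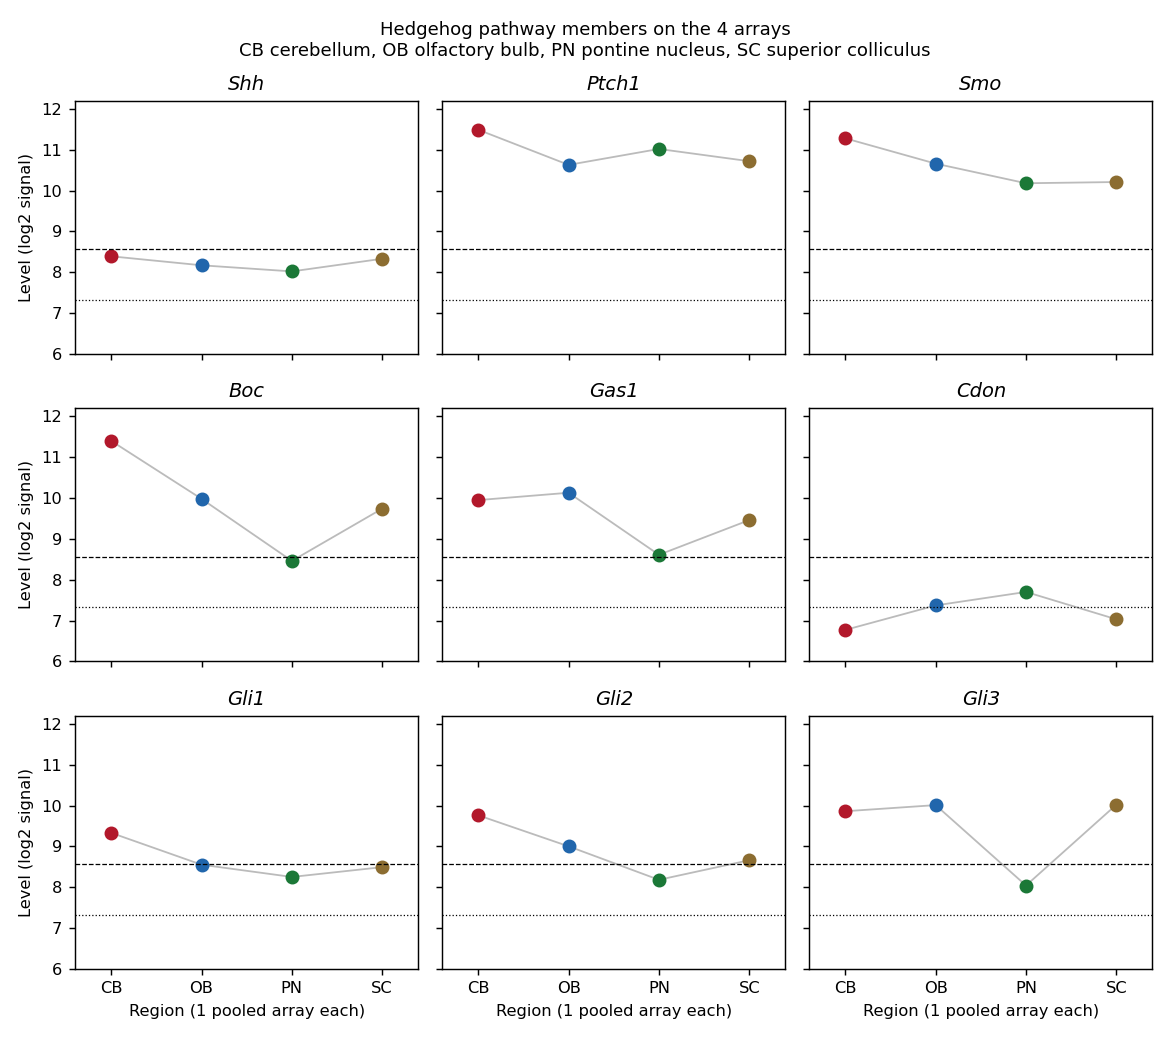
Level of each member (log2 signal, vertical axis) on the 4 arrays (horizontal axis, CB cerebellum, OB olfactory bulb, PN pontine nucleus, SC superior colliculus); each point is 1 array, the dashed line is the floor of 8.56 and the dotted line the 95th percentile of the background genes, 7.33. Boc spans 2.94 log2 units, Gli3 drops in the pontine nucleus alone, and Shh is nearly level.

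The ligand gene Shh read 8.39 in cerebellum, 8.17 in bulb, 8.02 in pontine nucleus and 8.33 in colliculus. All 4 values lay between the background percentile and the floor. With the regions ordered by level, no step exceeded 0.16 log2 units. The whole range of 0.37 was within the spread between probe sets, so the place of Shh in the counts above rests on differences no larger than that spread. The other ligand genes of the family were as level. Ihh (Indian hedgehog) read 8.55, 8.37, 8.46 and 8.45 in the same order of regions and Dhh (Desert hedgehog) 7.22, 7.14, 7.11 and 7.03, both below the floor throughout.

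The receptor gene Ptch1 read 11.49 in cerebellum, 10.63 in bulb, 11.02 in pontine nucleus and 10.72 in colliculus. The cerebellum stood above each other region by 0.47 or more, while the other 3 differed among themselves by at most 0.39, within the spread between probe sets. The range of 0.86 log2 units, 1.81-fold, stayed under the size rule. In the pontine nucleus 6 of the 7 compared members read below the other arrays' mean, and Ptch1 read 0.07 above it. That count takes differences of any size, and the median of this difference over all compared genes was -0.0033.

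Smo, the membrane protein that Ptch1 holds in check, read 11.28 in cerebellum, 10.66 in bulb, 10.18 in pontine nucleus and 10.21 in colliculus. The cerebellum exceeded the pontine nucleus 2.14-fold and the superior colliculus 2.10-fold. The olfactory bulb stood between them, 0.62 log2 units under the cerebellum and 0.45 above the superior colliculus. The pontine nucleus and the superior colliculus differed by only 0.03.

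The 3 co-receptor genes had 3 different patterns. Boc, an immunoglobulin and fibronectin domain protein, read 11.40 in cerebellum, 9.98 in bulb, 8.46 in pontine nucleus and 9.74 in colliculus. It was called higher in the cerebellum, 1.42 log2 units above the next region, and lower in the pontine nucleus, 1.28 below the next lowest. The cerebellum exceeded the pontine nucleus 7.67-fold, the superior colliculus 3.16-fold and the olfactory bulb 2.68-fold. Only the olfactory bulb and the superior colliculus, 0.24 apart, were not separated beyond the spread between probe sets. Of the compared genes, 99.0% had a smaller range than Boc.

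Gas1, a lipid-anchored cell surface protein, read 9.95 in cerebellum, 10.13 in bulb, 8.61 in pontine nucleus and 9.46 in colliculus. The bulb and the cerebellum were 0.18 apart, and the superior colliculus lay below both, 1.40-fold under the cerebellum and 1.59-fold under the bulb. Its lowest level was again that of the pontine nucleus, 0.85 below the superior colliculus, which did not reach the size rule. Cdon, the close relative of Boc, read near background and was lowest in the cerebellum. It read 6.77 in cerebellum, 7.37 in bulb, 7.70 in pontine nucleus and 7.03 in colliculus. With the regions ordered by level, each step, of 0.26 to 0.34, was within the spread between probe sets. Cerebellum minus bulb, at -0.60, and pontine nucleus minus colliculus, at 0.67, exceeded it. The cerebellar and collicular values lay under the 95th percentile of the background genes, and the difference between cerebellum and pontine nucleus was -0.93 log2 units. The annotation ties this probe set to a single predicted transcript of Cdon, and how well it reports the gene was not tested.

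Among the transcription factors, Gli1 and Gli2 had the same order of regions, and Gli3 had another. Gli1, an activator and a standard readout of the pathway, read 9.33 in cerebellum, 8.55 in bulb, 8.25 in pontine nucleus and 8.49 in colliculus. The cerebellum stood 0.78 above the next region, and the other 3 lay within 0.30 of each other, all under the floor and not apart beyond the spread between probe sets. Gli2 read 9.76 in cerebellum, 9.0 in bulb, 8.18 in pontine nucleus and 8.66 in colliculus. Here the pontine nucleus was also set off, by 0.48 from the superior colliculus, and the cerebellum exceeded it 2.99-fold.

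Gli3 read 9.86 in cerebellum, 10.01 in bulb, 8.04 in pontine nucleus and 10.02 in colliculus. The 3 high regions lay within 0.16 log2 units, and the pontine nucleus lay 1.82 below the lowest of them, so that Gli3 was called lower there. Of the induced genes among the members, Ptch1 was second of the 4 regions in the pontine nucleus and Gli1 was lowest there. Neither set the pontine nucleus apart from bulb or colliculus beyond the spread between probe sets. Hhip, an induced gene outside the members, did so, at 7.03 in pontine nucleus, 7.73 in bulb and 8.99 in colliculus. Its pontine value lay under the background percentile.

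Set against the other 3 arrays, the size rule called 1 of the 7 compared members higher in the cerebellum (Boc), where 0.605% of the compared genes were called, and 2 lower in the pontine nucleus (Gli3 and Boc), where 0.981% were. No member was called lower in the cerebellum (0.156% of compared genes), higher in the pontine nucleus (0.798%), or either way in the olfactory bulb (0.972% higher, 0.431% lower) or the superior colliculus (0.715% higher, 0.165% lower). Against the mean of the other arrays, Gli2 and Boc passed as higher in the cerebellum (2.42% of compared genes) and Gli3, Boc and Gas1 as lower in the pontine nucleus (3.62%). Relative to the mean of the other arrays, the median over the 7 members was 0.90 log2 units in cerebellum, 0.11 in bulb, -0.96 in pontine nucleus and -0.22 in colliculus. Over all compared genes these medians were -0.06, 0.03, -0.0033 and 0.0. With Shh and Cdon included, the cerebellar median was 0.70 and the pontine one -0.54.

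**Figure D2:**
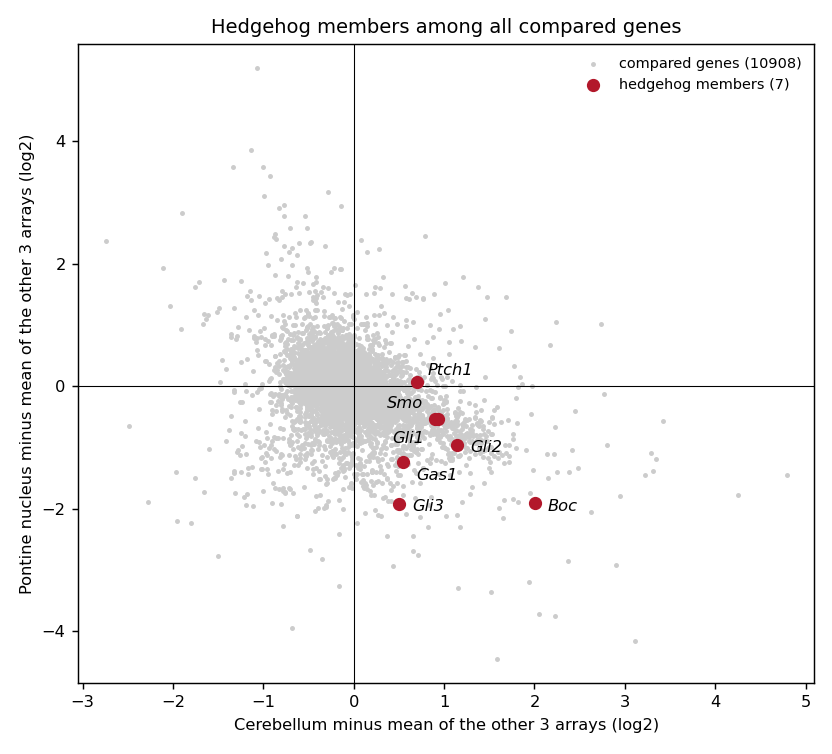
Difference from the mean of the other 3 arrays (log2) in the cerebellum (horizontal axis) and in the pontine nucleus (vertical axis) for the 10908 compared genes (grey points) and the 7 compared members (red points). Of the members, Boc lies farthest out in the lower right part, and Ptch1 lies just above the horizontal line. Each region enters the mean that the other is compared with, so the axes are not independent.

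Pairs of regions share their arrays and are not independent of each other. The widest pair was the cerebellum against the pontine nucleus. Of the 7 compared members, 6 were at least 1 log2 unit higher in the cerebellum (Smo, Gli1, Gli2, Gli3, Boc and Gas1) and 0 lower, where 4.49% and 1.88% of compared genes were. The median difference was 1.34 log2 units, against -0.04 over all compared genes. Boc alone exceeded 2 log2 units (4-fold) in this pair, as did 0.642% of compared genes. Against the superior colliculus, 3 members were higher in the cerebellum (Smo, Gli2 and Boc) and 0 lower, with 3.08% and 2.63% of compared genes. Against the olfactory bulb, Boc was higher in the cerebellum and 0 members lower, with 2.06% and 2.46%.

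Without the cerebellum the members still differed at the pontine nucleus. In the olfactory bulb 3 members, Gli3, Boc and Gas1, were higher than in the pontine nucleus and 0 lower, where 5.20% and 2.57% of compared genes were. Compared with the superior colliculus, 0 members were higher in the pontine nucleus (1.72% of compared genes) and 2, Gli3 and Boc, were lower (4.12%). Between the olfactory bulb and the superior colliculus no member reached the rule in either direction, against 2.94% of compared genes higher in the bulb and 2.73% lower. The widest member difference in that pair was that of Gas1, 0.67 log2 units higher in the bulb.

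The rest of the pathway was taken from lists of 69 further genes, of which 63 were measured and 46 passed the floor. Of these 46, 13 had a range of at least 1 log2 unit, as did 15.0% of all compared genes. In the olfactory bulb 1 was called higher (Sfrp1), where 0.972% of compared genes were, and in the superior colliculus 1 was called lower (E2f1), where 0.165% were. Relative to the mean of the other arrays, their medians were -0.02 in cerebellum, -0.02 in bulb, -0.01 in pontine nucleus and 0.12 in colliculus. The 13 were 3 genes of ligand release, 3 of the cell surface, 1 of the cytoplasmic steps and 6 targets.

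At the cell surface, 3 of 4 measured genes passed the floor, and each ranged over more than 1 log2 unit. Hhip, which binds and sequesters the ligand and is induced by the signal, read 8.61 in cerebellum, 7.73 in bulb, 7.03 in pontine nucleus and 8.99 in colliculus. The pontine value lay under the background percentile, and the cerebellum and superior colliculus were 0.38 apart. Gpc3, a glypican that restrains hedgehog signalling, read 9.73, 8.25, 7.74 and 8.76 in the same order of regions, 3.97-fold higher in the cerebellum than in the pontine nucleus. Gpc5, a glypican that promotes it, was instead highest in the bulb, at 7.52, 8.84, 7.32 and 8.28. All 3 were lowest in the pontine nucleus. Gpc5 lay there under the background percentile and only 0.20 below the cerebellum, within the spread between probe sets. Lrp2, an endocytic receptor for the ligand, read 8.25, 7.16, 7.77 and 8.40 and stayed below the floor.

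Of the genes for release of the ligand, 5 of 8 passed the floor. Scube2, a secreted protein that helps to free the lipid-bearing ligand from cells, read 10.15 in cerebellum, 9.56 in bulb, 8.50 in pontine nucleus and 9.05 in colliculus, a range of 3.14-fold with the same order as Gli2. Of its relatives, Scube1 was also lowest in the pontine nucleus, 0.64 below the next region, but neither relative was highest in the cerebellum. Scube1 read 8.89, 8.96, 8.25 and 9.28, and Scube3 8.54, 9.14, 8.89 and 9.59, both highest in the superior colliculus, Scube1 by only 0.32. Disp1, the transporter that exports the ligand, was level at 10.74 to 10.81, and Disp2 read 10.89, 10.91, 11.55 and 11.72.

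**Figure D3:**
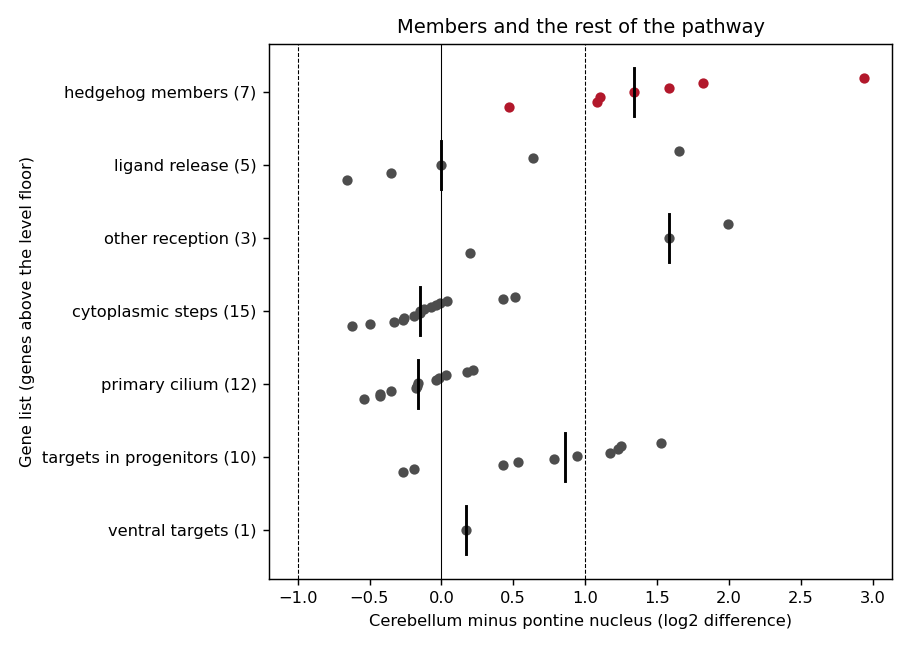
Cerebellum minus pontine nucleus (log2 difference, horizontal axis) for each gene above the level floor, by list (vertical axis, number of genes in brackets); black bars are list medians and dashed lines mark 1 log2 unit. Members are centred on 1.34, other reception genes on 1.58 and targets in progenitors on 0.86. Ligand release genes centre on 0.0, and the cytoplasmic and cilium genes on -0.15 and -0.17.

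Of 15 cytoplasmic genes above the floor, which include kinases, ubiquitin ligase parts and Gli regulators, 1 had a range of at least 1 log2 unit, against 15.0% of compared genes. The median range of the list, 0.41, was close to the 0.39 of all compared genes. That was Dzip1, a basal body protein, at 11.66 in cerebellum, 11.28 in bulb, 11.99 in pontine nucleus and 12.43 in colliculus. Cul3, a ubiquitin ligase scaffold, and Csnk1a1, a casein kinase, ranged over only 0.13 and 0.19. Stk36, a kinase of the fused family, and Gpr161, a ciliary receptor that restrains the pathway, ranged over 0.71 and 0.66, both highest in the pontine nucleus, where Gpr161 was level with the superior colliculus. Sufu, the Gli-binding inhibitor, was picked after its values were seen. It read 10.67, 10.13, 10.24 and 9.89, highest in the cerebellum with a range of 0.78. Of 12 genes of the primary cilium above the floor, 0 had a range of 1 log2 unit, where 15.0% of compared genes did. The widest range in the list was 0.54, and Dync2h1, the dynein motor of ciliary transport, and Tctn1, a transition zone protein, ranged over 0.04 and 0.18.

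Of 10 genes listed as targets or effectors of the pathway in progenitors, all passed the floor and 6 had a range of at least 1 log2 unit, against 15.0% of compared genes. Ccnd1, the cyclin D1 gene, read 11.62 in cerebellum, 10.81 in bulb, 10.45 in pontine nucleus and 10.25 in colliculus. Mycn, a growth-promoting transcription factor of granule cell precursors, read 10.93, 10.29, 9.68 and 9.80. These 2 were highest in the cerebellum, like Gli1, and so were Foxm1, a mitotic transcription factor, at 9.91, 9.50, 8.38 and 8.15, and E2f1, a cell cycle factor, at 10.85, 10.23, 9.91 and 8.90. Foxm1 in the cerebellum was only 0.41 above the bulb, within the spread between probe sets. Ccnd2, the cyclin D2 gene, read 11.96, 12.18, 10.73 and 10.22, with cerebellum and bulb 0.22 apart. Sfrp1, a Wnt antagonist, was highest in the olfactory bulb, at 10.57, 11.97, 10.76 and 9.99. Bcl2, an inhibitor of cell death, and Bmi1, a chromatin repressor, had the narrowest ranges, 0.58 and 0.76.

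Counted at any size of difference, 4 of the 10 targets were lowest in the pontine nucleus, where 33.6% of all genes were. The other 6 were lowest in the superior colliculus, for which the share over all genes was not counted. Medians of the targets against the other arrays were 0.69 in cerebellum, 0.40 in bulb, -0.57 in pontine nucleus and -0.61 in colliculus. Targets of the ventral neural tube were low. Of 7 measured, only Olig2, which is also a gene of oligodendrocyte precursors, passed the floor, at 9.59, 8.91, 9.42 and 9.48. Foxa2, the floor plate factor, read 7.86 to 7.97, with no regional difference beyond the spread between probe sets.

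Markers of several cell types and of cell division also differed between regions, but not all in the order of the members. In tissue samples fewer cells of a type and less RNA per cell cannot be told apart. At any size of difference, all 14 measured genes of cell division read highest in the cerebellum, as did 30.6% of all genes. All 14 read lowest in the superior colliculus, for which the share over all genes was not counted. Their medians were 1.19 in cerebellum, 0.68 in bulb, -0.71 in pontine nucleus and -1.13 in colliculus. Their summed linear signal was 26419 in cerebellum, 19575 in bulb, 9821 in pontine nucleus and 7900 in colliculus. All 14 division genes read higher in the pontine nucleus than in the superior colliculus, by a median of 0.27 log2 units. Only Ccna2, Plk1 and Rrm2, at 0.45, 0.58 and 0.52, differed there beyond the spread between probe sets. In the same pair Gli2, Gas1, Boc and Gli3 read lower in the pontine nucleus, with differences of -0.48 to -1.98. Ptch1 and Cdon read higher there, by 0.30 and 0.67. Smo, Gli1 and Shh, at -0.03, -0.24 and -0.31, were not apart beyond the spread between probe sets, nor was Ptch1.

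**Figure D4:**
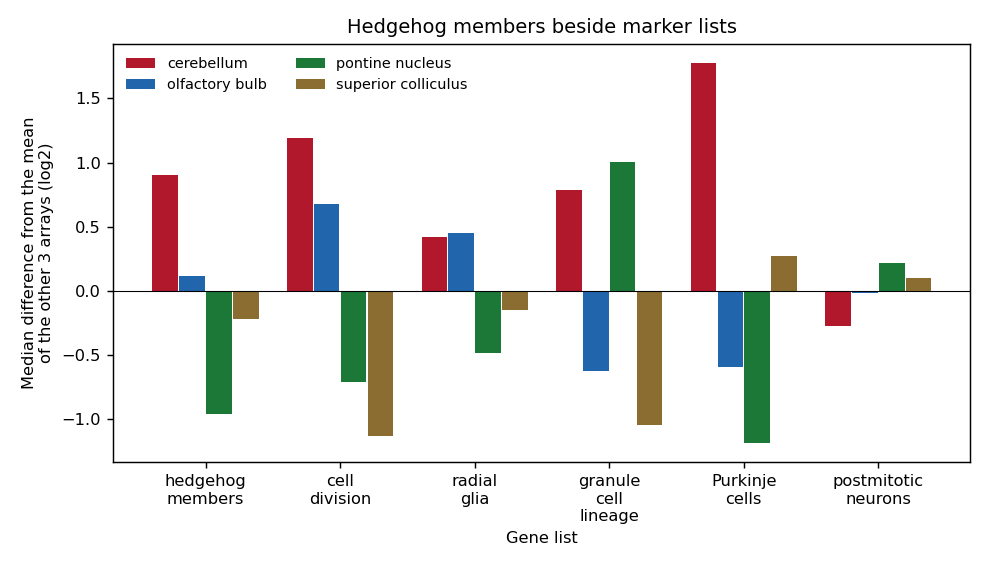
Median difference from the mean of the other 3 arrays (log2, vertical axis) of the members and of 5 marker lists (horizontal axis), with 1 bar per region and only genes above the floor. The members are highest in the cerebellum at 0.90 and lowest in the pontine nucleus at -0.96, whereas cell division is lowest in the superior colliculus at -1.13. The granule cell lineage list has a high median in both the cerebellum and the pontine nucleus. Its pontine median comes from genes other than Atoh1, Neurod1 and Mfap4, which read below the other arrays' mean there.

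Radial glia and astrocyte genes, which mark cells that also respond to the ligand, had medians of 0.42 in cerebellum, 0.46 in bulb, -0.48 in pontine nucleus and -0.15 in colliculus. Of the 12, 8 were lowest in the pontine nucleus at any size of difference, where 33.6% of all genes were. Among them were Sox9 at 11.16, 10.89, 9.87 and 10.61 and Gdf10, a gene of Bergmann glia, at 11.20, 11.08, 8.35 and 9.21. Only Sox2, Sox9 and Gdf10 lay below the next region beyond the spread between probe sets, by 0.76, 0.74 and 0.86. In the pontine nucleus 3 genes, Fabp7, Hopx and Tnc, read above the other arrays' mean. The summed signal of the list was 54749, 47883, 39791 and 40750. Genes of Purkinje cells, which make the ligand in the cerebellum, had medians of 1.78, -0.59, -1.18 and 0.27, and a summed signal of 23192, 6038, 4621 and 11904. Shh itself was 0.06 to 0.37 log2 units higher in the cerebellum than in the other regions, within the spread between probe sets.

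The granule cell lineage list of 11 genes had medians of 0.79 in cerebellum, -0.62 in bulb, 1.0 in pontine nucleus and -1.04 in colliculus, and a summed signal of 38637, 18849, 43129 and 17460. Atoh1, which defines the dividing granule cell precursors, read 10.70 in cerebellum, 6.92 in bulb, 7.70 in pontine nucleus and 7.20 in colliculus, and on 2 of the 3 other arrays it lay under the background percentile. Neurod1, a neuronal differentiation factor, read 12.30, 11.52, 6.85 and 9.18, the widest range of the list, and was called lower in the pontine nucleus, while Mfap4 read 11.75, 9.75, 8.20 and 8.47. The high pontine median of the list came from the other 8 genes, among them Barhl1 and Meis1, each of which exceeded the other arrays' mean there. Barhl1 also stands on the list of pontine genes, and whether that median marks granule cells in the pontine nucleus was not tested. Genes of postmitotic neurons had medians of -0.28, -0.02, 0.22 and 0.10, and a summed signal of 38073, 45092, 48433 and 44553. Oligodendrocyte precursor genes had medians of 0.12, -0.50, 0.10 and 0.05 and a summed signal of 4046, 2999, 3964 and 3842. Of 7 genes of meninges and choroid plexus 3 passed the floor, all highest in the olfactory bulb, and the list summed to 1634, 3320, 1446 and 1727. Only Dcn exceeded the next region beyond the spread between probe sets, by 1.94, while Col1a1 and Col1a2 did so by 0.37 and 0.34, within it. The part of these cell types in the regional differences of the members was not tested.

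For each member with a range of at least 1 log2 unit, the 3 genes with the most similar profile were sought among 10584 compared genes with established symbols, by the largest difference between the centred profiles over the 4 arrays. With 4 points such likeness is weak, and many genes share the simpler patterns. For Smo 42 genes lay within 0.2 log2 units, for Gli1 35, for Gli2 14, for Gas1 10, for Gli3 3 and for Boc 0. The closest to Smo were Dusp16 and Bora at 0.075 each and Tacc3 at 0.085, and those to Gli1 were Lfng, B2m and Plscr1 at 0.068 to 0.080. Gli2 had Nkain4 at 0.065, Hadh at 0.13 and Gpx8 at 0.13. Gas1 had Nbl1, Rgs7bp and Plpp3, at 0.12 to 0.14.

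Gli3 was nearest to Fgf11, a fibroblast growth factor homolog, which read 9.64 in cerebellum, 9.92 in bulb, 7.92 in pontine nucleus and 9.83 in colliculus. The next were Mgll at 0.12 and Adcy8 at 0.20. Boc had no close match. Its nearest profiles were those of Cbln1, the cerebellin 1 gene, at 0.38, which read 11.77, 10.94, 9.58 and 10.25, of Pdgfc, a growth factor gene, at 0.39, and of Tmem255a at 0.39.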

How the data were processed

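Total RNA of 4 regions, pooled over 13 to 16 mice each, was labelled as sense-strand cDNA per the labels' protocols and hybridised to 1 Affymetrix array per region. The authors deposited 1 log2 value per probe set and array, and the log2 scale was inferred here from the values, which lay between 2.43 and 14.57 with 2 decimals. Affymetrix Expression Console was used per the submitters' processing notes. Not given in the sources used here are its version, the summarisation, background correction, scaling and genome build. The close array medians were taken to mean that the columns were already scaled, which can hide a difference in RNA per cell, and dim genes have compressed differences.

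Probe sets were named through the array's 2016 annotation, updated by Entrez ID against RefSeq genes of GRCm38.p6. Of 35556 probe sets, 21789 had 1 symbol, 1621 had several and were not used, and 12146 are unnamed here. Of the named ones 21698 matched RefSeq, which changed 0 symbols. Where a gene had several probe sets, the one with the highest mean stood for it. Listed genes with no singly named probe set were not analysed here. All columns were assigned to samples by identifier.

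No test was possible with 1 array per region, so results rest on the size rule of 1 log2 unit. Members and lists were chosen with earlier results of these data known. Of each pathway list, the text names up to 6 genes with a range of at least 1 log2 unit and the 2 with the narrowest range. Some further ones (Ihh, Dhh, Lrp2, Sufu, Stk36, Gpr161, Foxa2, Olig2 and the marker examples) were chosen once values had been seen. As alternatives, the floor was dropped or set to the 75th percentile (10.03), columns were quantile normalized, probe sets of a gene were averaged, the rule was raised to 2 log2 units, and other comparators were used. Tools were Python 3.11.15, SciPy 1.17.1, NumPy 2.4.6, Matplotlib 3.10.9 and pandas 2.3.3.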

Additional observations from a re-analysis of the deposited data

How the results depend on the processing

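Quantile normalization moved no count or list median beyond the tolerances used, 1.5 times for counts and 0.16 log2 units (the spread between probe sets, as an SD) for differences. When probe sets of a gene were averaged, only the ligand release list moved, to a median of 0.31 in the superior colliculus. The rule of 2 log2 units left 1 member, Boc, higher in the cerebellum than in the pontine nucleus. It left 0 members higher in the cerebellum or lower in the pontine nucleus against the other 3 arrays, and 0 in every other pair. Against the mean of the other arrays, 2 members were higher in the cerebellum. A floor at the 75th percentile kept 4 members, Ptch1, Smo, Boc and Gas1, and so had 1 lower in the pontine nucleus, 3 higher in the cerebellum than in the pontine nucleus and 1 lower in the pontine nucleus than in the superior colliculus. With no floor, the member medians over 9 genes were 0.70 in cerebellum and -0.54 in pontine nucleus. Against the highest of the other arrays they were 0.62 in cerebellum, -0.76 in bulb, -1.52 in pontine nucleus and -0.84 in colliculus. Against the lowest, a comparator added after seeing the data, they were 1.34, 0.82, -0.48 and 0.48, so the sign in the olfactory bulb and the superior colliculus depends on the comparator. The median of the ligand release list turned to -0.0317 in the superior colliculus and moved to -0.0083 in the pontine nucleus with no floor. With the floor at the 75th percentile, which leaves 3 of its genes, it was -0.0267 in bulb, 0.04 in pontine nucleus and -0.0533 in colliculus. The same floor gave medians of 1.40 for cell division genes in the cerebellum, -1.0 and 3.57 for pontine genes in the cerebellum and the pontine nucleus, and -1.04 and 0.47 for Purkinje cell genes in the olfactory bulb and the superior colliculus. Values of Shh and Cdon are limited by their low signal. No paired analysis was possible because each region has 1 array.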
